A study of Arabidopsis thaliana with 13 samples.

Results

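In total, 156 of the 3689 named Arabidopsis genes on spotted cDNA arrays had transcript ratios at least 2-fold lower at 36 h than at 24 h on both arrays that compared these times. The log2 ratio of each feature, set as the later against the earlier time, was centred on the median of its array and averaged over the features of a gene, and a gene was kept where the result was -1 or lower on both arrays. In all, 164 genes met this threshold, which is 4.45% of the 3686 named genes with a value on both arrays. Of these, 8 were left out of the set: RCA, SBPASE, PRK, CaS, TZP, PSBY, TUA6 and AT1G11860. The genes were selected on the values of these arrays, so their ratios at 36 h against 24 h are a description and were not tested.

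The study measured total RNA from plants harvested at different hours to find transcripts that change with a daily rhythm. Each of 13 arrays set RNA of a later time against RNA of an earlier time in 2 colours. The earlier time was 0 h on 10 arrays, with 6 h as the later time on 2 of them, 12 h on 5, 18 h on 2 and 24 h on 1. The arrays that chose the genes compared 36 h with 24 h, once with no light condition given and once with both times in the dark. A further array compared 60 h with 48 h in plants that had grown in 12 h light and 12 h dark and had then been kept in continuous light for 24 and 36 h. The labels state light for no other array, and they give no accession, age or tissue. Of the markers looked up, 0 of 3 leaf, 1 of 3 root, 0 of 2 seed and 0 of 2 flower genes had a named feature, so the tissue could not be checked. The sources used here do not say which channel is the numerator. Channel 2 was taken as the likely one, and with channel 1 all directions given here would be opposite.

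Many plant transcripts rise and fall once a day, driven by a clock of interlocking transcriptional repressors that keeps time without light, and by light and sugar themselves. Genes of the chloroplast, of reductive metabolism and of growth are known for such rhythms.

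Mean log2 ratios of the 156 genes over both 36 h arrays ran from -3.22 to -1.04, with a median of -1.44. At least 4-fold lower ratios on both arrays were found for 17 genes. The dark array and the array with light not stated gave similar sizes: 134 of the 156 genes differed by less than 0.5 between them, 73 were lower in the dark, and the median difference was 0.02. Across all 3686 named genes Pearson's r between the 2 arrays was 0.71. This is a correlation across genes, which are not independent, on arrays of 1 design. In the opposite direction, 135 named genes were at 1 or higher on both arrays, and 3 passed the threshold with opposite signs. Just inside the threshold lay AT1G15140 (-1.24 and -1.01 in the dark), AT1G29240 (-2.07 and -1.01) and AT1G04040 (-1.83 and -1.002). Just outside lay AT3G06150 (-0.99 and -1.91), AT1G68570 (-1.13 and -0.99) and AT1G26850 (-0.98 and -1.26). In RNA from whole tissue, a lower ratio through fewer cells of a type and one through less RNA per cell cannot be told apart.

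**Figure D1:**
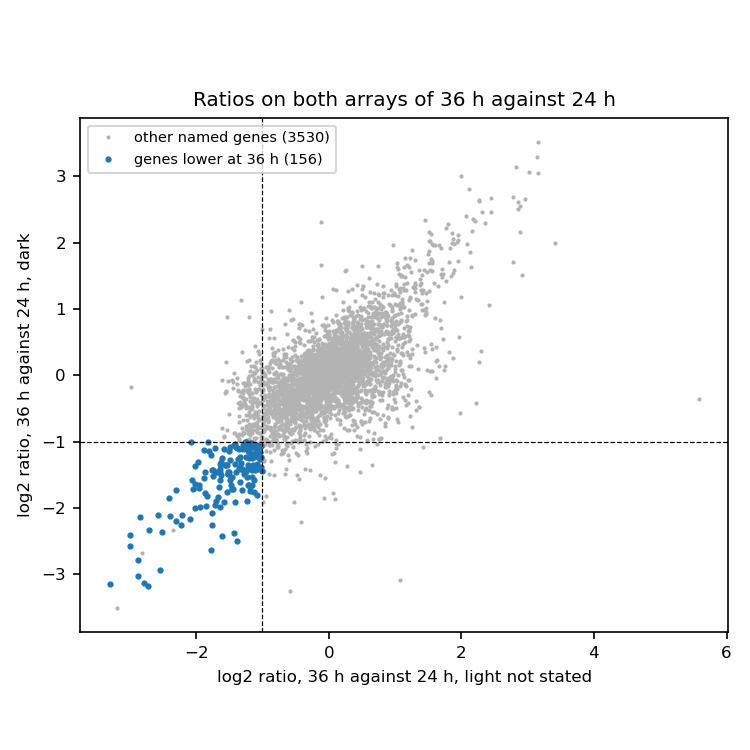
Log2 ratios of named genes on the array of 36 h against 24 h with light not stated (horizontal axis) and on the dark array (vertical axis); blue points are the 156 genes at -1 or lower on both, and dashed lines mark -1. Grey points inside the lower left corner are the 8 genes left out; the other grey points are the remaining named genes.

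A symbol of its own was held by 39 of the 156 genes, and the other 117 are known here by locus alone, so no role is given for them, apart from AT1G54010, for which the gene table has a GDSL-like lipase name. The lowest mean belonged to AT4G16980, with -3.30 on the array with light not stated and -3.14 in the dark, which is 9.32-fold. Its 2 features gave -3.30 and -3.30 on the first array and -2.94 and -3.34 on the dark array. AT5G33370 had -2.78 and -3.13, AT2G23690 had -2.73 and -3.18, and AT3G19330 had -2.88 and -3.02. These were the only genes besides AT4G16980 that were below -3 on the dark array. AT2G10940, the gene with the most features, had 5 that lay between -3.09 and -2.71 on the array with light not stated and between -3.17 and -2.44 in the dark. All features of AT2G10940 were therefore more than 4-fold lower on both arrays. AT1G61770, AT3G47650, AT4G16630, AT3G47070, AT4G32900, AT5G28740, AT1G44000, AT5G55620, AT1G56190, AT1G26220, AT3G56290 and AT3G49220 completed the loci among the 25 lowest, with means from -2.79 to -1.94.

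Several genes with known roles in the chloroplast were in the set. The NADH dehydrogenase-like complex of the thylakoid passes electrons back into the chain around photosystem I, and 3 of its 4 measured nuclear-encoded subunits were in the set. NdhN had -2.23 with light not stated and -2.26 in the dark, and its 2 features lay between -2.46 and -1.99. NdhL had -1.35 and -1.11, and NdhU had -1.21 and -1.24. The fourth subunit, NdhS, which binds the electron donor ferredoxin, was above 0 on both arrays at 0.43 and 0.23. These families were put together after the values had been seen, so their counts carry no test. Here the measured genes of a list or family are those matched by symbol or by name in the gene table. Relatives known by locus alone can be missing from these counts. ATPC1, the gamma subunit of the chloroplast ATP synthase, had -1.28 and -1.49. Of the 8 measured genes of the list of electron transport and ATP synthase, ATPC1 and NdhN were in the set and PSBY was past the threshold but left out, against 4.45% of all named genes. LHCB4.3 of that list had -0.82 and -0.51, and the other measured genes lay between -0.43 and 0.61.

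HEME2, a uroporphyrinogen decarboxylase of the pathway to haem and chlorophyll, had -1.43 and -1.05. It was 1 of 3 measured genes of chlorophyll synthesis. The others differed: HEMB1, an earlier enzyme, had -0.49 and -0.31, while PORB, which reduces protochlorophyllide in the light, had 0.74 and 0.77. LIL3:2, a light-harvesting-like protein, had -1.36 and -1.42 as the mean of 3 features that spread from -2.03 to -0.65 on the first array and from -2.05 to -0.16 in the dark. ATAB2, an RNA-binding protein needed to translate photosystem subunits, had -1.03 and -1.24. Cpn60beta3, a subunit of the chloroplast chaperonin that folds proteins such as Rubisco, had -2.99 and -2.42, or 6.52-fold in the mean. Cpn60beta4, the other measured chaperonin subunit, had -0.75 and -0.61 and did not meet the threshold. TPI, the single gene matched by name to the Calvin cycle list used here, had -0.86 and -0.83. A match by name does not show that its enzyme acts in the chloroplast, which was not checked. That list did not hold the genes left out, and it can miss genes of the cycle known by locus alone. Among the genes past the threshold but left out, SBPASE (-2.81 and -2.68) and PRK (-2.01 and -1.72) belong to the Calvin cycle, and RCA (-1.60 and -1.35) activates its carboxylase.

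Reductive and sulphur metabolism supplied a further group. Both measured glutathione reductases, which regenerate reduced glutathione, were in the set. GR, the enzyme of plastids and mitochondria, had -2.22 and -2.11, and GR1, the cytosolic enzyme, had -1.16 and -1.24. AOR, a chloroplast oxidoreductase that removes reactive carbonyls, had -2.85 and -2.14. VTC4, a phosphatase of ascorbate synthesis, had -1.13 and -1.76. None of the 4 genes matched by name to the list of thioredoxins and peroxiredoxins was in the set. NTRC came nearest with -1.06 and -0.79. The list can miss relatives known by locus alone. Of 5 measured genes of sulphur assimilation and methionine synthesis, 3 were in the set. SIR, the sulfite reductase, had -1.61 and -2.43. CBL, the cystathionine beta-lyase of methionine synthesis, had -1.31 and -1.42, and HL, a HAL2-like phosphatase that acts on nucleotides of the sulphation pathway, had -1.63 and -1.30. APS4, an ATP sulfurylase, had -0.71 and -0.69, and OASA2, a cysteine synthase gene, was above 0 at 0.53 and 0.63. Thus 1 measured gene of the sulphur family lay on the other side of 0 on both arrays.

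Genes of sugar and specialised metabolism and of transport were also in the set. UGT78D1, which adds rhamnose to flavonols, had -1.94 and -1.98, and GT72B1, a glucosyltransferase of xenobiotics and phenolics, had -1.63 and -1.51. They were 2 of 15 measured UDP-glycosyltransferases, of which UGT73B1 had 1.36 and 1.58, so the family as a whole was split. CHIL, a chalcone isomerase-like protein of flavonoid synthesis, had -1.23 and -1.90. SWEET11, a sucrose exporter of phloem loading, had -1.96 and -1.65 and was 1 of 3 measured SWEET genes. GTR1, a glucosinolate transporter, had -1.13 and -1.09, beside -0.98 and -0.70 for GTR2. MTP11, a manganese transporter, had -1.98 and -1.31. cICDH, the cytosolic isocitrate dehydrogenase that makes NADPH, had -1.55 and -1.35, whereas the mitochondrial subunit genes IDH-V and IDH-VI lay between -0.34 and -0.16. ACS, the acetyl-CoA synthetase, had -1.02 and -1.06, and FAC1, the AMP deaminase, had -1.23 and -1.54. All of the genes in this group were between 2-fold and 4-fold lower on both arrays.

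Genes of growth, the wall and membrane traffic made up the next group. EXO, a gene of brassinosteroid-promoted growth and the single measured gene of the exordium family, had -2.71 and -2.33, or 5.75-fold in the mean. PMEPCRF, a pectin methylesterase, had -1.15 and -1.66 and was 1 of 6 measured genes of wall loosening and building. EXPA9, an expansin, had -0.71 and -1.13, and XTH16, a xyloglucan endotransglucosylase, had -0.87 and -0.42, so each was below the threshold on at most 1 array. GH9C2, of the endoglucanase family, had -1.12 and -1.06 and was 1 of 6 measured genes of its family. RALFL22, a signalling peptide, had -1.09 and -1.06 and was 1 of 5. KEU, a Sec1-type protein of cytokinesis, had -1.04 and -1.15. VPS2.1, of the ESCRT-III complex that sorts membrane proteins, had -1.17 and -1.02 and was 1 of 6. CRT1b, a calreticulin of the endoplasmic reticulum, had -1.47 and -1.65. AT1G54010, the 1 gene matched by name to the list of GDSL lipases and lipid transfer, had -1.22 and -1.15. Other genes of that kind can be among those known by locus alone. The wall, endoglucanase, RALF and ESCRT-III families thus each had most of their genes matched by name outside the set. Relatives known by locus alone can be missing from these counts.

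bHLH115, a transcription factor of iron deficiency, had -1.12 and -1.23 and was 1 of 4 genes matched by name to the transcription factor list. This list is no count of all such genes measured. ILR3, a related factor, had -0.38 and 0.01. The remaining genes with a symbol were DJ1F, ECS1, FMO, CDI, DRT100, scpl35 and the small heat shock protein gene ATHSP22.0, with means from -2.21 to -1.09. Of the other lists, aquaporins (1 measured gene) and auxin and brassinosteroid response (2 measured genes) had 0 genes in the set. Plastid ribosome, carbonic anhydrase, cuticle and wax, and protein kinase lists had 0 genes matched by name. Genes of these kinds can still be among those known by locus alone.

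**Figure D2:**
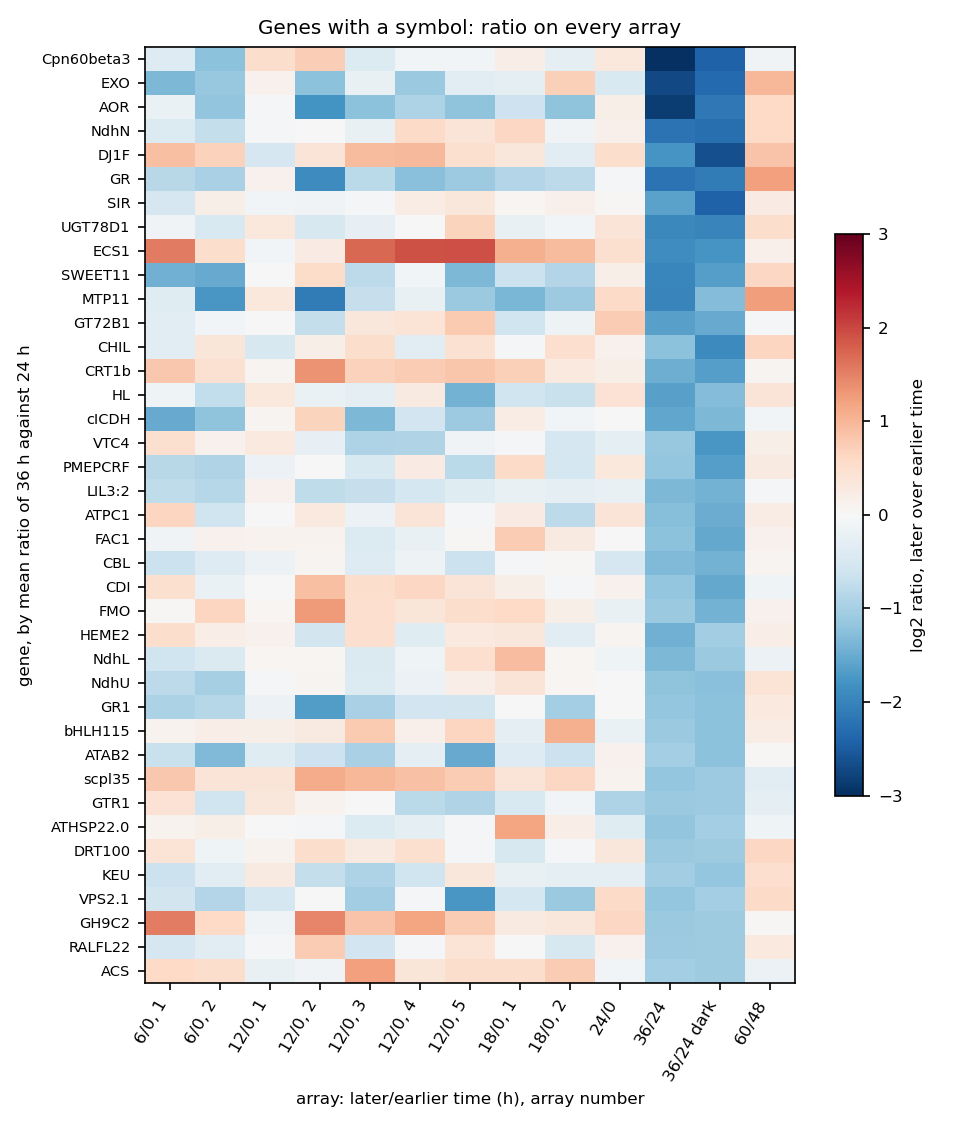
Log2 ratios (later over earlier time) of the 39 genes with a symbol (rows, ordered by mean ratio of 36 h against 24 h) on each of the 13 arrays (columns, later/earlier time in hours and array number). The columns of 36 h against 24 h are blue throughout because the genes were chosen on them. As read, GR, EXO, SWEET11 and cICDH are also blue on both 6 h arrays, while DJ1F and ECS1 are red on both. At 60 h against 48 h, 29 of the 39 genes are above 0.

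The largest gap in the direction of the dark array was that of AT3G49220, with -1.38 with light not stated and -2.50 in the dark. AT5G52780 had -1.44 and -2.38, DJ1F had -1.78 and -2.64, SIR had -1.61 and -2.43 and AT1G06360 had -1.08 and -1.80. In the other direction, AT1G29240 had -2.07 and -1.01, and AT1G04040 had -1.83 and -1.002. AT1G11700 had -1.88 and -1.12, AOR had -2.85 and -2.14, and MTP11 had -1.98 and -1.31. With 1 array for each condition, and with the later time in channel 1 on one array and in channel 2 on the other, a difference between light conditions and a dye effect cannot be told apart in these values.

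Of the 156 genes, 117 had 1 feature and 39 had at least 2, which together had 100 features. Of these 100 features, 99 were below 0 on both arrays and 70 were at -1 or lower on both. For 15 of the 39 genes every feature met the threshold. The median range between features of a gene was 0.52 on the array with light not stated and 0.72 on the dark array. The widest was that of AT5G46030, singled out after its values were seen, with dark ratios of -2.97, -0.53 and 0.23, so 1 of its 3 features carried the mean past the threshold. AT5G53140 had 1 feature at -2.47 and 3 between -1.06 and -0.84 with light not stated. AT3G61870 (4 features from -1.55 to -0.79), AT1G13640 (4 features from -1.59 to -1.01) and AT5G19250 (4 features from -1.53 to -1.18) were closer together. A cDNA feature can also bind transcripts of close relatives, and the sequences of the features were not used here.

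**Figure D3:**
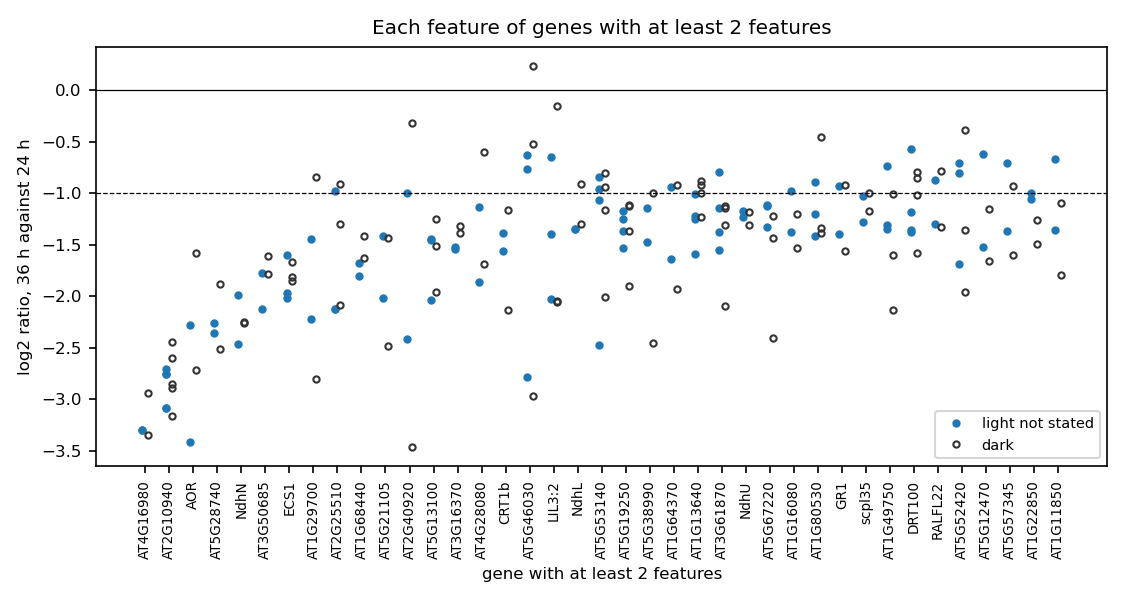
Log2 ratio of 36 h against 24 h (vertical axis) of each feature of the 39 genes with at least 2 features (horizontal axis), with filled points for light not stated and open circles for dark; the dashed line is the threshold of -1. The 5 features of AT2G10940 lie together between -3.17 and -2.44, while 1 dark feature of AT5G46030 lies at 0.23, the only feature above 0.

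On the arrays that were not used to choose them, the set held a larger share of genes below 0 at 6 h than the named genes did. Shares and medians are given as descriptions and were not tested. Of the 156 genes, 108 were below 0 on array 1 of 6 h (69.2%, against 48.5% of all named genes) and 116 on array 2 (74.4%, against 54.8%). Their fitted median change was -0.40, against -0.02 over named genes. The title of array 2 gives its times in the order opposite to its channels, which were followed here. Turned as the title has it, array 2 had 40 of the genes below 0 (25.6%, against 45.1% of named genes), and the fitted 6 h median was -0.027. As read, Pearson's r between the 2 arrays of 6 h across named genes, which are not independent, was 0.498. Every later statement on both 6 h arrays follows the channels. In a linear model over all arrays and all 11290 targets (limma, called at a Benjamini-Hochberg adjusted p under 0.05), 0 of the 156 genes were called lower and 0 higher at 6 h, beside 0.0% and 0.0271% of all named genes. At an unadjusted p under 0.05, 52 genes were lower (33.3%, against 7.26% of named genes) and 9 higher (5.77%, against 5.58%). AT1G04040 had -1.74 and -1.77 on the 6 h arrays (limma, adjusted p = 0.0509). AT3G02690 had -1.69 and -1.73 (limma, adjusted p = 0.0509), and SWEET11 had -1.45 and -1.51 (limma, adjusted p = 0.0643). Both arrays were thus close to each other for these genes without a call. Without array 1 of 12 h, which shares the spread estimate, 13 genes were called lower and 1 higher at 6 h, against 0.949% and 0.759% of named genes.

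At 12 h against 0 h, 12 of the 156 genes were called lower (7.69%, against 1.73% of named genes) and 3 higher (1.92%, against 1.36%). At an unadjusted p under 0.05, 46 were lower (29.5%, against 10.5% of named genes) and 16 higher (10.3%, against 8.81%). The fitted median was -0.10, against -0.00 over named genes. On arrays 1 to 5, the number below 0 was 64, 84, 110, 91 and 90, where arrays 1 and 2 were read with ScanAlyze 2.44 and the others with 2.33. Array 1 had a compressed range of ratios, with an SD of 0.28 over named genes against 0.52 to 0.71 on the other 4 arrays. Without it, 26 genes were called lower and 11 higher (16.7% and 7.05%, against 4.01% and 3.44% of named genes), and all 15 genes called with it were among them. Without any one of arrays 2, 3, 4 or 5 none was called, and without the dye term none was called. In each of these fits 0 of the 3689 named genes were called at 12 h, so the loss was not particular to the set. The labels call 3 of the 13 arrays biological and array 1 of 12 h single, and are otherwise silent on whether replicate arrays came from different plants. The p-values thus cover the spread among these arrays, part of which may be technical.

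Among the genes lower at 12 h was ATAB2, which had -0.36, -0.63, -0.98, -0.29 and -1.51 on arrays 1 to 5. All were below 0, and ATAB2 fell 1.78-fold (log2 -0.83 ± 0.15 SE, limma adjusted p = 0.0270). AOR had -0.05, -1.78, -1.23, -0.93 and -1.21, and it fell by 1.09 ± 0.24 (limma, adjusted p = 0.0394). AT5G28740 had -0.13 on array 1 and between -1.84 and -1.41 on the other 4, and it fell by 1.36 ± 0.21 (limma, adjusted p = 0.0259), a 2.57-fold change. Both of its features were more than 2-fold lower on each of those 4 arrays. AT5G12470 had -0.38, -0.51, -0.80, -0.67 and -0.55, the narrowest spread of the 15 called genes (SD 0.16, n = 5 arrays). It fell 1.51-fold (limma, adjusted p = 0.0439). AT4G32900 had the largest change among the called genes, with 0.03 on array 1 and -2.44, -1.81, -1.33 and -1.47 on the others, and a fitted log2 change of -1.46 ± 0.30 (limma, adjusted p = 0.0325). AT5G13100 (-1.22), AT1G10740 (-1.09), AT1G61770 (-0.996), AT5G57345 (-0.99), AT3G02690 (-0.91), AT5G55620 (-0.77) and AT1G29700 (-0.77) were the other genes called lower, at limma adjusted p-values from 0.0296 to 0.0452. Of the 12 genes, 8 were below 0 on every array of 12 h, and all 12 were below 0 on both arrays of 6 h and on both of 18 h. The arrays of 6, 12 and 18 h share the 0 h time as their earlier sample.

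A smaller number went the other way at 12 h. scpl35, a serine carboxypeptidase-like gene, had 0.38, 1.12, 0.99, 0.88 and 0.77 on arrays 1 to 5 of 12 h, all above 0. It rose 1.77-fold (log2 0.82 ± 0.16 SE, limma adjusted p = 0.0313), whereas it had -1.15 and -1.09 from 24 to 36 h. AT5G19250 had 0.15, 0.68, 1.31, 1.40 and 1.87 and rose 2.18-fold (limma, adjusted p = 0.0325). AT4G12850 had -0.07 on array 1 and 0.44 to 1.81 on the others and rose 2.02-fold (limma, adjusted p = 0.0404). These genes were thus higher 12 h after 0 h and lower 12 h after 24 h, while the 12 genes above were lower at both.

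**Figure D4:**
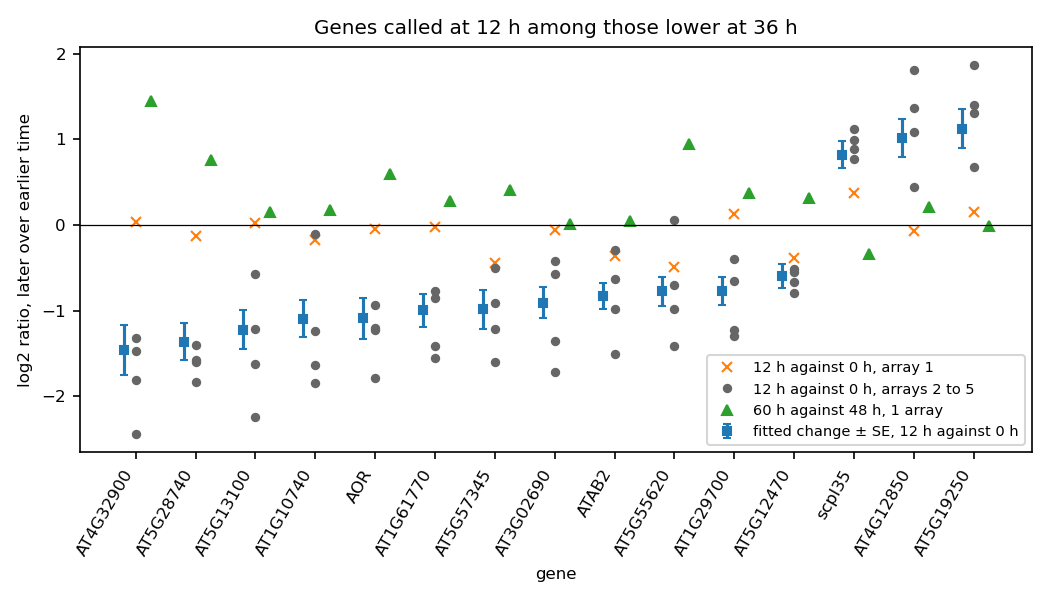
Log2 ratios (vertical axis) of the 15 genes called at 12 h against 0 h (horizontal axis): orange crosses are array 1, grey points arrays 2 to 5, blue squares the fitted change with its SE, and green triangles the array of 60 h against 48 h. Array 1 lies nearer to 0 than the other arrays for most genes, and all 12 genes called lower at 12 h are above 0 at 60 h in these ratios, though 6 of them are below 0 once the fitted dye term is taken off.

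Leaving out array 1 of 12 h, 41 of the 156 genes were below 0 on all 6 other arrays of 6 and 12 h (26.3%, against 10.1% of named genes) and 17 were above 0 on all of them (10.9%, against 10.4%). With array 2 of 6 h turned as its title has it, these numbers were 1 (0.641%, against 1.04%) and 4 (2.56%, against 1.93%), and with that array left out they were 42 (26.9%, against 11.2%) and 21 (13.5%, against 12.4%). As read, with all 7 arrays, they were 15 (9.62%, against 3.93%) and 9 (5.77%, against 6.05%). The group below 0 held GR, GR1, AOR, ATAB2, EXO, LIL3:2, MTP11 and VPS2.1 among genes with a symbol. GR, for example, had -0.84 and -0.98 at 6 h and -1.89, -0.81, -1.26 and -1.08 on arrays 2 to 5 of 12 h, with 0.14 on array 1. EXO had -1.34 and -1.13 at 6 h and -1.24, -0.23, -1.11 and -0.33 on those arrays of 12 h. The group above 0 held CRT1b, DJ1F, ECS1, FMO, GH9C2, bHLH115 and scpl35. ECS1 had 1.55 and 0.54 at 6 h and 0.24, 1.72, 1.91 and 1.92 on arrays 2 to 5 of 12 h. GH9C2 had 1.53 and 0.59 at 6 h and 1.47, 0.85, 1.19 and 0.77 on the same arrays of 12 h. The 3 chloroplast complex subunits were in neither group: NdhN, NdhL and NdhU were below 0 on both 6 h arrays, between -0.996 and -0.40, and lay on both sides of 0 at 12 h, between -0.43 and 0.57.

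**Figure D5:**
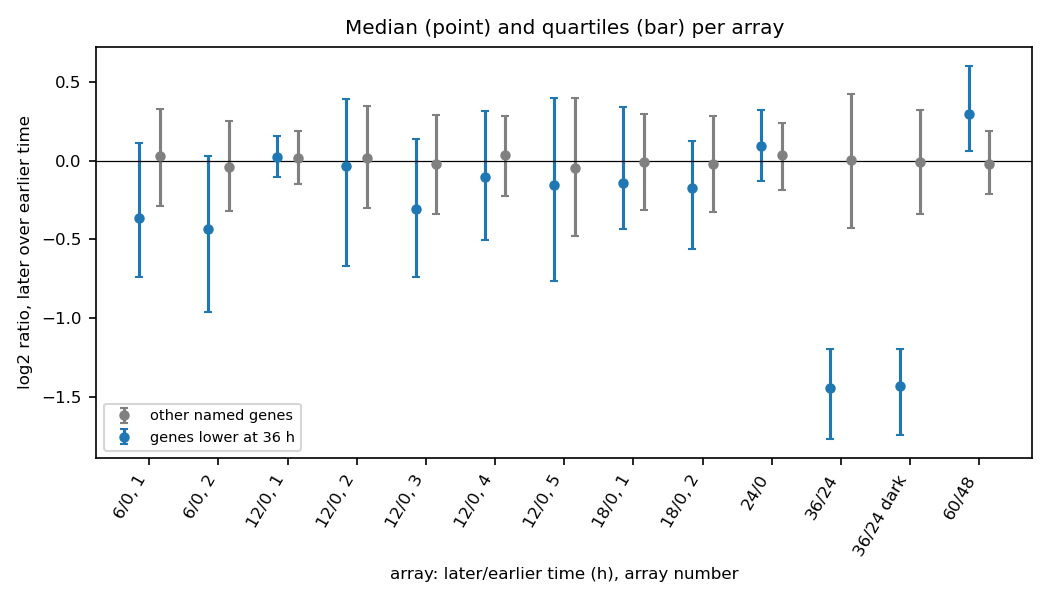
Median log2 ratio (points) and quartiles (bars) of the 156 genes (blue) and of the other named genes (grey) on each array (horizontal axis, later/earlier time in hours and array number). The genes lie below the others on both 6 h arrays, at medians of -0.36 and -0.43 as read (array 2 would be at 0.43 if turned as its title has it), and above them at 60 h against 48 h, at 0.30; their position at 36 h against 24 h follows from how they were chosen.

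At 18 h against 0 h, 86 of 155 genes were below 0 on array 1 (55.5%, against 50.7% of named genes) and 102 of 156 on array 2 (65.4%, against 52.3%). The fitted median was -0.04, against 0.03 over named genes. None was called lower or higher with limma, beside 0.0% and 0.0% of named genes, and at an unadjusted p under 0.05 there were 5 lower (3.21%, against 2.17% of named genes) and 1 higher (0.641%, against 1.52%). Of the 41 genes that were below 0 at 6 and 12 h, 32 were below 0 on array 1 of 18 h and 32 on array 2. Of the 17 that were above 0, 14 were above 0 on each. Both groups were picked by sign on arrays that share the 0 h time with the 18 h arrays. Named genes picked in the same way were not counted at 18 h, so these counts do not set the 156 genes apart.

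The array of 24 h against 0 h compares times a full day apart. On it 62 of the 156 genes were below 0 (39.7%, against 46.0% of named genes) and 94 above (60.3%, against 54.0%). The median was 0.09, against 0.04 over named genes. Values ran from -0.92 for GTR1 to 1.19, and 0 genes were at -1 or lower, against 2.14% of named genes. This array is given as a description only, because 24 h is also the earlier time of the arrays that chose the genes. AT4G16980 had 0.01, AT2G10940 had -0.06, NdhN had 0.15 and GR had -0.04. These 4 genes were thus within 0.2 of no difference between 0 h and 24 h.

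The array of 60 h against 48 h, on plants in continuous light, spans 12 h as do the arrays of 36 h against 24 h, but its values lay on the other side of 0. Of the 156 genes, 123 were above 0 (78.8%, against 48.3% of named genes) and 33 below, with a median ratio of 0.30. Values ran from -0.63 to 2.31, so that 0 genes were at -1 or lower, against 0.98% of named genes. Among the 25 genes lowest at 36 h, 23 were above 0 at 60 h. In the linear model, which removes the dye term, the median was 0.24, against -0.05 over named genes. With limma 0 genes were called lower and 1 higher, beside 0.0272% and 0.136% of named genes, and at an unadjusted p under 0.05 there were 0 lower (0.0%, against 0.844% of named genes) and 6 higher (3.85%, against 1.41%). There is 1 array and no replicate, so the test assumes that it varies like the others.

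AT2G40920 was the gene called, at 2.31 on the array and 2.16 ± 0.38 SE in the model (limma, adjusted p = 0.0465). Its 2 features disagreed: 1 had 4.83 at 60 h, with -2.41 and -3.46 at 36 h, and the other had -0.22, with -1.002 and -0.32. The call thus rests on 1 feature. It was lost in 9 of the 15 alternatives tried, among them leaving out any 1 array of 6 h or 12 h (limma, adjusted p = 0.0554 to 0.125). AT1G64370 had 1.65, AT4G32900 had 1.45 and AT1G54010 had 1.34. MTP11 had 1.25, GR had 1.23, AT3G49070 had 1.19 and AT3G49220 had 1.14. The lowest were AT3G56680 (-0.63), AT1G04040 (-0.57), AT2G25510 (-0.52), AT5G03120 (-0.50), AT5G25100 (-0.46), AT1G04430 (-0.42), AT5G42530 (-0.39) and scpl35 (-0.33). None of these 8 was more than 2-fold lower. All 5 features of AT2G10940 were above 0, from 0.92 to 1.20, where the same features were below -2.4 at 36 h. EXO had 0.99, AOR 0.60, NdhN 0.59 and SWEET11 0.61, while Cpn60beta3 had -0.11.

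The difference between the change from 48 to 60 h and the change from 0 to 12 h was tested in the same model, a contrast added after the data had been seen. With limma, 0 of the 156 genes were called lower and 0 higher, beside 0.0% and 0.0272% of named genes. The median difference was 0.39, against -0.03 over named genes, and at an unadjusted p under 0.05 there were 19 genes higher (12.2%, against 2.67%) and 1 lower, scpl35. Of the 12 genes called lower at 12 h, all 12 were above 0 at 60 h in the ratios of the array itself. In the fitted values, which take off the dye term, 6 of them were above 0 and 6 below, down to -0.41 for AT3G02690. AT4G32900 differed by 2.62 ± 0.74 (limma, adjusted p = 0.309) and AT5G28740 by 1.85 ± 0.54 (limma, adjusted p = 0.325). These differences were larger than their standard errors but did not pass the threshold over all targets. No contrast with the 36 h arrays was tested, since they chose the genes.

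The 156 genes lay on all 5 nuclear chromosomes in shares from 10.9% (chromosome 4) to 30.1% (chromosome 1), against 14.7% and 26.7% of named genes. In the TAIR10.1 gene table, 565 pairs of next-door genes had both genes measured, 50 of them with at least 1 gene of the set. In 3 pairs both genes were in the set: AT4G28070 and AT4G28080, AT5G07020 and AT5G07030, and AT5G38980 and AT5G38990. The median gene length was 2090 bases over 155 genes of the set, against 2293 over 3683 named genes. Of the 3689 named genes, 545 had a symbol of their own, against 39 of the 156.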

How the data were processed

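Total RNA was compared on 13 spotted cDNA arrays in 2 colours. The authors deposited 1 log2 ratio per feature and array, and per the labels read the arrays with ScanAlyze 2.33, 2.42 or 2.44. Their background correction and normalisation are not given in the sources used here. Of 12800 features, the platform annotation assigned 5197 to a single gene, 214 to several, and 7389 were not listed. Symbols were updated through the TAIR10.1 table, which matched 5190 features, and features were averaged to 3689 named genes.

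From each ratio the median of its array was subtracted, and signs were set as later against earlier. Targets with values on at least 10 arrays, 11290 in all, were fitted with limma 3.58.1 in R 4.3.3 (lmFit and eBayes), with a coefficient for each pair of times and a term for the dye of the later time. The spread was shared over all arrays and p-values were adjusted by Benjamini-Hochberg. The fit was checked on simulated data. The number of arrays limits precision. Errors are standard errors unless SD is named.

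The members and lists were chosen with earlier results of these data known. Genes were named by these rules: the 25 lowest means at 36 h, up to 12 called each way per comparison, list members, the 3 on each side of the threshold, the 5 largest differences each way between the 36 h arrays, the 5 with most features, and the 8 highest and lowest at 60 h. Other genes with a symbol, and the families, were named after their values were seen. Alternatives changed the dye term, centring, scaling, missing values, threshold, handling of features, the direction of array 2 of 6 h (its title and its channels give opposite orders), and left out arrays.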

Additional observations from a re-analysis of the deposited data

Results flagged for a closer look

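AT5G28740 stood apart at 12 h against 0 h because 1 of its 5 arrays was far from the others. Array 1 gave -0.13, while the other 4 lay between -1.84 and -1.41. Array 1 is the array with the compressed range of ratios. Of 16 groups of values tested in this way, which were the 15 genes called at 12 h and the median over the 156 genes, this was the only 1 that stood out, and chance marks about 1 group in 20. Without array 1 the fitted change was -1.60 (limma, adjusted p = 0.000751), and over the other alternatives it ran from -1.497 to -1.24. The call was lost in 6 of the alternatives, at limma adjusted p-values of up to 0.235.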

How the results depend on the processing

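No median turned its sign under the alternatives run. Counts of called genes have no sign to turn, and those at 12 h fell to 0 under several alternatives. In these alternatives 0 named genes were called at 12 h. A threshold of -1.5 kept 44 genes, of which 7 were called lower and 1 higher at 12 h, against 1.73% and 1.36% of named genes. Medians of the 44 genes were -0.26 at 12 h, -0.68 at 6 h, 0.50 at 60 h and 0.80 for the difference of 60 h and 12 h. Without a dye term, 0 genes were called lower and 0 higher at 12 h, beside 0.0% and 0.0% of named genes. With a separate dye term for ScanAlyze 2.33, 1 was called lower and 1 higher at 12 h (each 0.641%, against 0.163% and 0.271% of named genes). At 60 h 0 were then called higher, against 0.0272% of named genes. With arrays scaled to 1 spread, 3 were called lower at 12 h (1.92%, against 0.651%) and 1 higher for the difference, and the 60 h median was 0.44. With values required on all 13 arrays, 5 were called higher at 12 h (3.23%, against 1.93%) and 5 lower at 6 h (3.23%, against 0.385%). With array 2 of 6 h turned, as its title would have it, 0 were called lower and 0 higher at 12 h, beside 0.0% and 0.0% of named genes. At 60 h 0 were then called higher, against 0.0272% of named genes, and the 6 h median was -0.027. Among genes with every feature past the threshold, 0 were called higher at 60 h, against 0.136% of named genes. Why the calls changed was not tested. Without array 1 of 12 h, 4.01% of named genes were called lower and 3.44% higher at 12 h. At 6 h these shares were 0.949% and 0.759%. That fit gave the highest of the counts below at 6 and 12 h. Leaving out 1 array at a time gave 0 to 26 called lower and 0 to 11 higher at 12 h, 0 to 13 lower and 0 to 1 higher at 6 h, 0 to 1 higher at 60 h, and 0 to 3 higher for the difference. The medians then ran from -0.15 to -0.06 at 12 h, from -0.40 to -0.39 at 6 h, from -0.14 to -0.02 at 18 h, from 0.23 to 0.27 at 60 h and from 0.36 to 0.45 for the difference. The limits are the number of arrays, the unstated direction of the ratios, and 1 array each for 24 h, both 36 h conditions and 60 h. No paired analysis was possible because the labels give the arrays no replicate numbers that could pair them.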
